A study of Mus musculus with 142 samples.

Results

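The genes described here are the 44 mouse genes that encode a collagen alpha chain and Serpinh1, which encodes the chaperone that binds newly folded procollagen in the endoplasmic reticulum. They were chosen by symbol, as every protein-coding gene named Col, a type number, the letter a and a chain number, with Serpinh1 added. This gave 45 genes out of 21468 protein-coding genes with a count. The choice was made with earlier results of these data known. A share of these genes set beside that of all genes is therefore a description and not a test. The study asked how H3.3 K27M, the mutant histone of diffuse midline gliomas, acts on oligodendrocyte progenitor cells (OPCs) of the brainstem and of the dorsal telencephalon, and RNA from OPC cultures was sequenced before and during differentiation. The set holds 142 libraries, 1 for each culture well.

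The K27M groups came from pups of an hGFAP-Cre;K27M cross, in which Cre under a human GFAP promoter switches on the mutant histone in neural progenitors and their progeny, and the Control groups came from littermate control pups. Pups were taken at P5-P7 on an FVB background, and tissue was pooled by region and genotype, so that no culture is 1 animal. Telencephalon tissue held cortex, corpus callosum and hippocampus. Cells binding the lectin BSL1 were first depleted (endothelial cells and microglia), and OPCs were then caught on an antibody against PDGFRa. All cultures were grown on poly-D-lysine with forskolin and CNTF. Day 0 wells were in proliferation medium with PDGF and neurotrophin-3, and wells of days 1, 2 and 5 were in differentiation medium with thyroid hormone. Region, genotype and day gave 16 groups, 14 of 9 wells and 2 of 8 wells (brainstem control day 1 and brainstem K27M day 2). Each region and genotype had 3 cultures (38, 41 and 42), and the wells of a culture share its cells.

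Collagens are built from 3 alpha chains wound into a helix. The chains are made in the endoplasmic reticulum, where lysines and prolines are hydroxylated and Serpinh1 escorts the folded helix, and most are trimmed and assembled outside the cell. Fibrillar chains form the ropes of connective tissue, type IV chains the sheet of basement membranes, type VI chains beaded filaments on cell surfaces, and a small group spans the cell membrane. In brain, collagen is known mostly from blood vessels and meninges.

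Sequence before the first exon is shown for 5 genes on which the results below turn: Serpinh1 and Col23a1, which were higher in K27M brainstem cultures on days 1 and 2, and Col13a1, Col6a1 and Col6a2, which had the steepest gains by day 5. The sequences are RefSeq's on GRCm38.p6, read 5′ to 3′ on the strand of the gene from the first base of the RefSeq window and ending before the first exon base that GENCODE annotates in it. Capitals mark a GC box (GGGCGG or its complement CCGCCC) or a TATA box (TATAAA). Serpinh1 lies on chr7:99353240-99353489 (minus strand), Col23a1 on chr11:51289670-51289919 (plus strand), Col13a1 on chr10:61979109-61979358 (minus strand), Col6a1 on chr10:76726169-76726294 (minus strand) and Col6a2 on chr10:76623631-76623880 (minus strand).
Serpinh1: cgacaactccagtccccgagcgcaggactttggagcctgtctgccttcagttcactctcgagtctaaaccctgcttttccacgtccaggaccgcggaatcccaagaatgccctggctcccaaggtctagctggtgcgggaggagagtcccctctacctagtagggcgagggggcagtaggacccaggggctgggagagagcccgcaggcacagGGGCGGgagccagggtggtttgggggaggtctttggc
Col23a1: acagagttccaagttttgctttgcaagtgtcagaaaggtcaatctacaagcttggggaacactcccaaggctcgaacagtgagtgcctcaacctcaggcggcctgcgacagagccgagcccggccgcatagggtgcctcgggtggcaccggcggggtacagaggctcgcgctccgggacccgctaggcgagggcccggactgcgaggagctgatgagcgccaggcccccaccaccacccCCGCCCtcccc
Col13a1: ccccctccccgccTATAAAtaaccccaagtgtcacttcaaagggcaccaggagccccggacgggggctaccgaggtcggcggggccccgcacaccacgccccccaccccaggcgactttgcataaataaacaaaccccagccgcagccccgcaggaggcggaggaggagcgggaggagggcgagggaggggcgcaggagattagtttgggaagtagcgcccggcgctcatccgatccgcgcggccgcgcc
Col6a1: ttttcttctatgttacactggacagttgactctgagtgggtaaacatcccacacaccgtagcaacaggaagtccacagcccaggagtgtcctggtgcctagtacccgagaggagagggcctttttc
Col6a2: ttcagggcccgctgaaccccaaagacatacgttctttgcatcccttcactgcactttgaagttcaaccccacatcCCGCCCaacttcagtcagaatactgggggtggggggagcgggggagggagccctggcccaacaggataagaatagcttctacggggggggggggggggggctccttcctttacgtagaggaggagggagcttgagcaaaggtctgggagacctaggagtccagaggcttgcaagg
The Col6a1 stretch is 126 bases long and held none of the motifs searched. Of the 45 genes, 36 had a RefSeq window, 39 windows in all, and 6 of these had no base before the first exon. For the counts that follow, the whole 250 bases before each RefSeq start were searched on both strands, exon bases included, in these genes as in all genes. A GC box was in 23 of the 39 windows, against 32.7% of 32851 windows of 250 bases over all genes. A CCAAT box (CCAAT) was in 13 windows, against 33.8% of all. A TATA box was in 5, against 12.4% of all. The heat shock element GAANNTTC was in 1 window, that of Col4a5, against 6.69% of all, and Serpinh1 did not have it in these 250 bases. A match is a description of letters only.

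Libraries held 26.6 to 455.4 M read pairs (median 46.9, second highest 84.7), and the deepest was a brainstem control well of culture 38 on day 5. Brainstem control wells of day 5 had 23254 to 33752 genes with a count (29442 to 33752 in culture 41), against 23488 to 26761 in brainstem K27M wells of that day, and culture 38, well 1 of brainstem control on day 2 had the fewest of all libraries, 20157. OPC and oligodendrocyte markers summed to at least 2750 CPM (depth-scaled read counts) in every well, as the labelled cell type would have them, while pericyte markers stayed at or below 50.9, fibroblast markers at or below 32.1, endothelial markers at or below 19.1 and microglial markers at or below 6.28 CPM. Astrocyte markers were spread more widely, at 58.2 to 15300 CPM, and neuron markers ran from 25.2 to 516 CPM. Passage was uneven, with a mean of 3.83 in brainstem K27M wells, 5.51 in brainstem control wells, 2.11 in telencephalon K27M wells and 2.14 in telencephalon control wells. The regions were also processed as different batches (3 and 4 for brainstem, 1 and 2 for telencephalon), so region and batch cannot be told apart. Culture 38 was batch 3 in brainstem and batch 1 in telencephalon, and cultures 41 and 42 were batches 4 and 2. Within a region, culture 38 and batch therefore cannot be told apart either. In bulk RNA, fewer cells of a type and less RNA per cell cannot be told apart.

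A gene was called when edgeR's quasi-likelihood test gave a Benjamini-Hochberg adjusted p under 0.05 with the same sign in 2 fits, 1 on wells and 1 on wells summed by culture and day. Log2 fold changes, their standard errors and adjusted p-values below are from the summed fit, where n is 3 cultures, each grown from pooled pups. All groups shared 1 fit with culture as a block, so the spread behind a p-value was pooled over all groups and days. The days of a culture entered as separate samples. The words "rose", "fell", "higher" and "lower" with a fold change were kept for called genes. Of the 45 genes, 40 passed the low-count filter, and Col10a1, Col28a1, Col6a4, Col6a5 and Col6a6 did not. A group mean of 5 CPM was reached by 28 genes, while 17 stayed below 5 CPM and 8 of those below 1 CPM in every group.

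A handful of chains made up most of the collagen RNA. On the TPM scale, which corrects for transcript length, Col16a1 was first of the 45 genes in all 16 groups, with group means of 54.8 to 132 TPM. Col16a1 encodes a fibril-associated chain. Col11a1, a fibrillar chain of cartilage and nervous tissue, was second on days 0 and 1 in every group, and on day 0 it averaged 30.4 TPM in brainstem K27M, 36.7 in brainstem control, 59.3 in telencephalon K27M and 61.8 in telencephalon control cultures. Col18a1, the basement membrane proteoglycan whose end fragment is endostatin, came next on day 0 in all 4 kinds of culture, at 16.8 to 32.9 TPM. By day 5 the second place was held everywhere by Col20a1, a fibril-associated chain, at 17.9 to 23.4 TPM. The chains that dominate skin and bone were scarce: no group of wells averaged more than 0.751 CPM of Col1a1 or 3.56 CPM of Col1a2, and Col3a1 had its highest group mean, 6.94 CPM, in telencephalon K27M cultures on day 5.

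The chains followed several time courses. Col11a1 was highest on day 1 in all 4 kinds of culture and lowest on day 5. In brainstem K27M cultures it averaged 357, 670, 399 and 114 CPM on days 0, 1, 2 and 5, and in brainstem control cultures 398, 619, 366 and 54.0 CPM. In telencephalon K27M cultures the same 4 days gave 678, 1080, 614 and 102 CPM, and in telencephalon control cultures 751, 903, 393 and 144 CPM. Col20a1 peaked on day 2. It averaged 21.3, 162, 327 and 152 CPM in brainstem K27M, 11.1, 53.9, 318 and 195 CPM in brainstem control, 17.0, 181, 354 and 213 CPM in telencephalon K27M and 15.3, 193, 402 and 177 CPM in telencephalon control cultures. Brainstem control cultures had the lowest Col20a1 mean of the 4 kinds on day 1. Col4a3, a basement membrane chain of kidney and lung, also had its highest mean on day 2, at 6.11 CPM in brainstem K27M, 9.70 in brainstem control, 8.25 in telencephalon K27M and 9.98 in telencephalon control cultures, and its day 5 means were 0.780 to 1.38 CPM. Col18a1 declined from the first day on, as the day 0, 1, 2 and 5 means of 228, 83.7, 24.2 and 18.4 CPM in brainstem K27M cultures show, beside 155, 63.5, 28.2 and 12 CPM in brainstem control cultures.

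**Figure D1:**
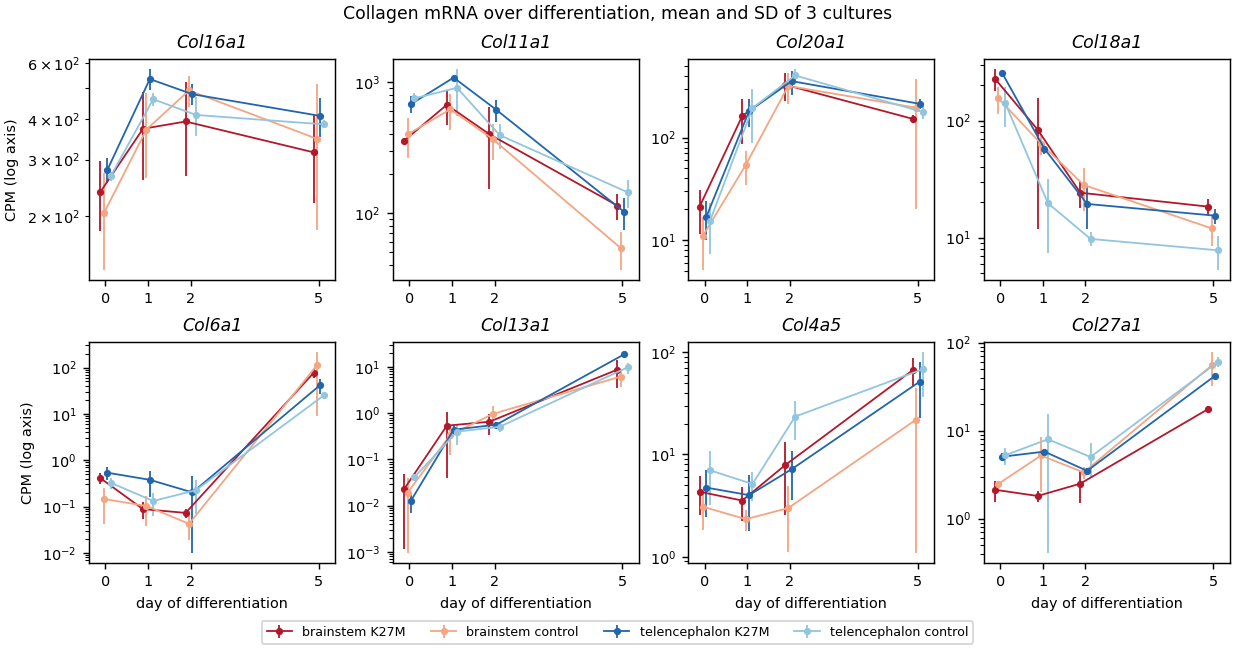
Mean CPM (log axis) of 8 collagen genes against days in differentiation medium, for K27M and control cultures of brainstem and telencephalon. Points are means and bars SDs of 3 cultures, and the lower end of a bar stops at 5% of its mean. Col18a1 in brainstem K27M cultures was at 18.4 CPM on day 5 and 228 CPM on day 0, Col20a1 peaked on day 2, and Col6a1, Col13a1, Col4a5 and Col27a1 had their highest means on day 5.

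Comparing day 5 with day 0 asks what differentiation does to these genes. In brainstem K27M cultures 19 of the 40 rose and 8 fell, where 32.9% of all 19769 genes tested rose and 27.6% fell. In telencephalon K27M cultures 24 rose and 5 fell (35.6% and 30.0% of all genes). In brainstem control cultures 22 rose and 6 fell (35.3% and 30.4%), and in telencephalon control cultures 25 rose and 5 fell (36.0% and 29.5%). The median log2 fold change of the 40 was 0.911, 1.526, 1.074 and 1.523 in that order, and the medians over all genes were 0.061, 0.084, 0.060 and 0.104. In all 4 comparisons the share that rose was above that of all genes and the share that fell was below it. This describes the set and does not test it, because the genes were chosen with earlier results known. Astrocyte markers moved with the day as well, with median sums of 1620 CPM on day 5 and 395 CPM on day 0 in brainstem K27M, 2700 and 145 CPM in telencephalon K27M, 269 and 303 CPM in brainstem control, and 6650 and 454 CPM in telencephalon control wells. Neuron marker sums had medians of 217 to 326 CPM on day 5 and 29.1 to 36.6 CPM on day 0, most of it Tubb3 in brainstem K27M wells on day 5 (198 CPM), and pericyte marker medians in telencephalon control wells were 38.5 and 10.1 CPM. Their part in the time courses was not tested. Of the 40 genes, 18 rose and 3 fell in all 4 comparisons, which was not counted over all genes.

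Collagen VI chains, which form beaded filaments around cells, were close to absent in progenitors. Col6a1 had 52.0, 84.2 and 92.6 CPM (lowest, median and highest well) in brainstem K27M wells on day 5, against 0.0186, 0.327 and 0.941 CPM on day 0. In brainstem control wells it had 29.6, 65.9 and 245 CPM on day 5 and 0.0355, 0.116 and 0.334 CPM on day 0. The days did not overlap in any region or genotype. Its log2 rise was 7.63 ± 0.62 in brainstem K27M (adjusted p = 2.92e-11), 6.33 ± 0.59 in telencephalon K27M (1.14e-10), 9.54 ± 0.69 in brainstem control (9.35e-13) and 6.33 ± 0.60 in telencephalon control cultures (1.45e-10). Col6a2, the partner chain, rose by 7.09 ± 0.44, 7.21 ± 0.45, 8.62 ± 0.48 and 6.42 ± 0.44 in the same order. Col6a3, the remaining chain of the classical molecule, rose by 2.71, 3.69, 3.44 and 3.39, and its group means on day 5 were lower, at 1.52 to 5.03 CPM.

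Membrane-spanning chains were near 0 on day 0. Col13a1, a chain found at cell adhesions and at the neuromuscular junction, reached at most 0.112 CPM in any day 0 well. On day 5 it had 4.00, 6.99 and 15.3 CPM in brainstem K27M wells, 3.36, 5.13 and 11 CPM in brainstem control wells, 14.2, 19.6 and 21.7 CPM in telencephalon K27M wells and 5.93, 7.46 and 18 CPM in telencephalon control wells. The log2 rises of 8.5 ± 0.67, 8.70 ± 0.69, 10.5 ± 0.74 and 8.05 ± 0.65 were fitted against day 0 levels of few reads, so their size depends on how such levels are modelled. Col23a1 rose by 6.15 in brainstem K27M, 5.15 in brainstem control, 4.64 in telencephalon K27M and 4.57 in telencephalon control cultures. Col17a1, the hemidesmosome chain of skin, rose in all 4 as well but stayed at or below a group mean of 2.58 CPM.

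Basement membrane chains did not move together. Col4a5 and Col4a6, which pair in the smooth muscle and epithelial network, rose in all 4 comparisons, Col4a5 by 3.99 in brainstem K27M, 3.02 in brainstem control, 3.48 in telencephalon K27M and 3.35 in telencephalon control cultures, and Col4a6 by 4.64, 4.06, 4.37 and 3.96. Col4a1, of the network found in almost every basement membrane, fell by 1.44 in brainstem K27M cultures and by 2.75 in brainstem control cultures, and rose by 1.06 in telencephalon control cultures. In telencephalon K27M cultures its log2 change was -0.73 (adjusted p = 0.0651) and was not called. Col4a2, its partner chain, fell by 1.79 in brainstem K27M, 2.86 in brainstem control and 1.22 in telencephalon K27M cultures, and was not called in telencephalon control cultures.

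Among the other chains, Col27a1, a fibrillar chain of growing cartilage, rose by 3.09, 4.50, 3.13 and 3.60, and Col11a2, which pairs with Col11a1 in cartilage fibrils, rose by 3.03, 3.21, 3.92 and 3.49 (brainstem K27M, brainstem control, telencephalon K27M and telencephalon control). Col11a2 therefore rose in each comparison in which Col11a1 fell. Col11a1 fell by 1.65, 2.75, 2.66 and 2.33 in the same order. Col18a1 fell by 3.61, 3.63, 4.04 and 4.16. Col18a1 had 10.8, 19.8 and 21.8 CPM in brainstem K27M wells on day 5, against 143, 223 and 304 CPM on day 0, with no overlap. Col19a1, a fibril-associated chain known from muscle and from neurons, fell by 5.02, 5.79, 3.16 and 4.58, and its mean on day 0 was 5.38 to 12.1 CPM. Col16a1, the most abundant, rose by only 0.42, 0.85, 0.62 and 0.60.

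**Figure D2:**
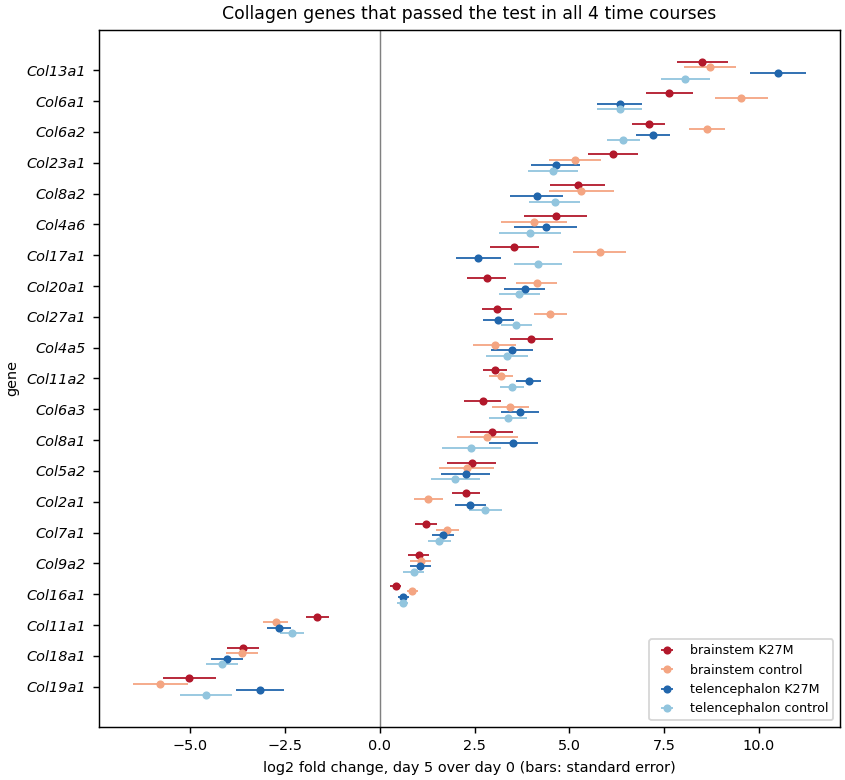
Log2 fold change of day 5 over day 0 for the 21 genes called in all 4 time courses, for K27M and control cultures of each region (edgeR, wells summed by culture, bars are standard errors). Col13a1, Col6a1 and Col6a2 lie furthest to the right at 6.33 to 10.5, and Col11a1, Col18a1 and Col19a1 lie below 0.

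Serpinh1 was called with its collagens in only some time courses. It rose by 1.89 in telencephalon K27M cultures (adjusted p = 0.0465) and by 1.96 in telencephalon control cultures (0.0393). In brainstem K27M cultures the change was 0.98 and was not called. In brainstem control cultures it was called at 2.30 (adjusted p = 0.0267), but the 3 cultures did not share a direction, with log2 differences of 3.90, -0.31 and -0.77 in cultures 38, 41 and 42. Culture 38 also stood apart on day 5 in astrocyte markers, whose sum was 1930 CPM in that culture, against 237 and 281 CPM in cultures 41 and 42. It was also of another batch than cultures 41 and 42, so culture and batch cannot be told apart here. All 8 astrocyte markers were measured, none was at 0 on day 5, and their part in the Serpinh1 difference was not tested.

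The comparison of K27M with control asks what the mutant histone changes at a given day. In brainstem cultures 5 genes were higher and none lower on day 0, where 1.33% of all genes were higher and 0.258% lower. On day 1, 7 were higher and 1 lower (3.31% and 2.45% of all genes), on day 2, 7 were higher and none lower (3.75% and 1.14%), and on day 5, 11 were higher and 2 lower (8.09% and 4.96%). The median log2 fold change of the 40 genes was 0.867, 0.803, 0.725 and 0.608 on days 0, 1, 2 and 5. Over the 4 days 14 genes were higher at least once. Neither this number nor the numbers of days that follow were counted over all genes. Col5a2 and Col12a1 were higher on all 4 days, Col23a1, Col26a1, Col2a1 and Col8a1 on 3 days, Col5a1 and Serpinh1 on 2 days, and 6 genes on 1 day.

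These counts rest on few cultures and move with passage. Without culture 38, 41 or 42 the numbers called were 6, 0 and 2 on day 0, 11, 0 and 7 on day 1, 7, 1 and 2 on day 2, and 18, 3 and 7 on day 5. A fit with passage as a covariate called 1, 5, 6 and 10 on days 0, 1, 2 and 5. Here and below, the numbers of all genes called in such refits are not given. A move in a count therefore cannot be read as particular to these genes. Passage differed between brainstem K27M wells (1 to 6) and brainstem control wells (3 to 8), and the brainstem calls described next are given with and without it.

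**Figure D3:**
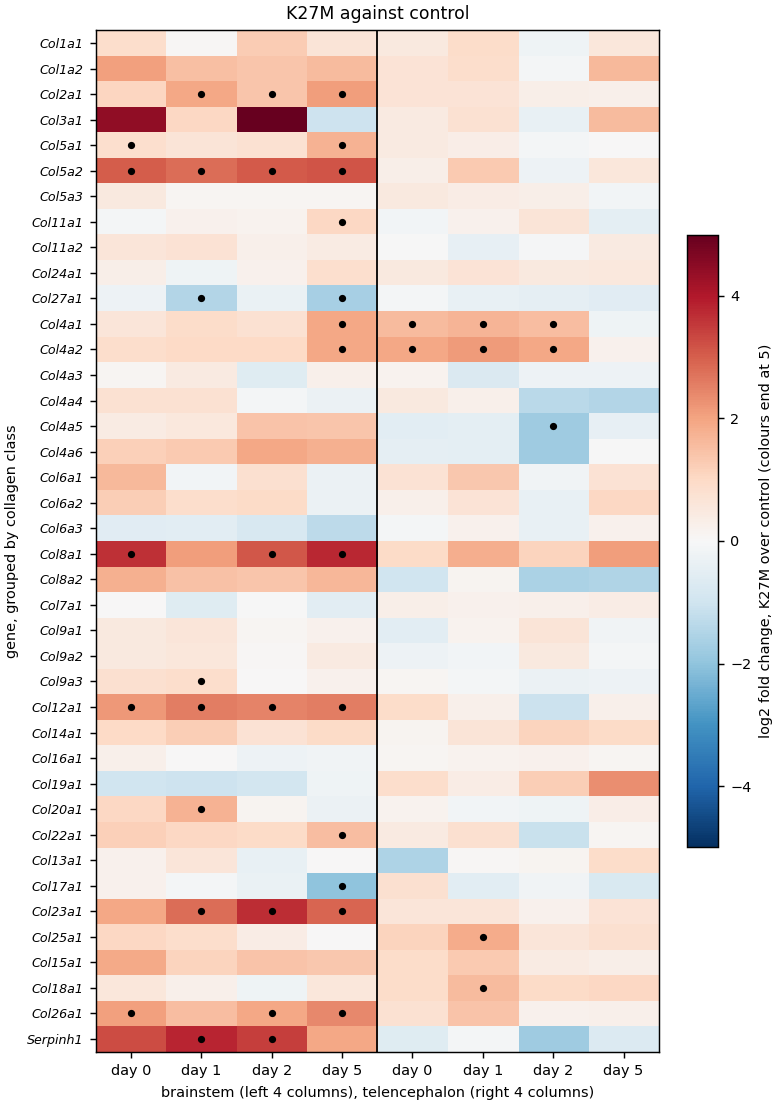
Log2 fold change of K27M over control for the collagen genes and Serpinh1 (rows) on days 0, 1, 2 and 5, with brainstem in the left 4 columns and telencephalon in the right 4. Colours end at 5 in either direction and dots mark the genes called, which in brainstem number 5, 8, 7 and 13 on the 4 days.

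Serpinh1 was higher in K27M brainstem cultures on the first days of differentiation. On day 1 it had 4.47, 12.7 and 16.5 CPM (lowest, median and highest well) in K27M wells, against 0.218, 0.945 and 1.22 CPM in control wells. On day 2 it had 6.23, 7.58 and 17.7 CPM in K27M wells, against 0.0934, 1.11 and 1.62 CPM in control wells. The wells of the 2 genotypes did not overlap on either day. The log2 fold changes were 3.80 ± 0.94 (adjusted p = 0.0141) on day 1 and 3.47 ± 0.92 (0.0240) on day 2. Both calls held without culture 38 (3.82 and 3.94) and were lost without culture 41 (3.63 and 3.46) or 42 (3.92 and 3.01). On day 0 the difference of 3.26 ± 0.89 was not called (adjusted p = 0.0561), with 4.44, 14.0 and 47.4 CPM in K27M wells and 0.0888, 1.37 and 8.31 CPM in control wells, which overlapped. On day 5 the difference of 1.94 ± 0.88 was not called either (adjusted p = 0.140), and by culture it was 0.15, 5.53 and 4.38 in cultures 38, 41 and 42.

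Passage and markers of other cell types moved with Serpinh1. The Serpinh1 difference with passage as a covariate was 2.00 on day 1 (adjusted p = 0.0140) and 2.32 on day 2 (0.00239), and both calls held, while day 0 gave 1.25 (0.276) and day 5 gave 1.01 (0.152). Wells of 2 passages were taken from the same culture on the same day in 13 cases, and in 12 of them every earlier-passage well had more Serpinh1 than every later one. In brainstem control culture 42 on day 0 it had 0.160 and 0.0888 CPM at passage 8, against 8.31 CPM at passage 3. In brainstem K27M culture 42 on day 0 it had 12.9 and 14.0 CPM at passage 5, against 28.6 CPM at passage 1. The exception was brainstem K27M culture 41 on day 0, with 16.4 and 47.4 CPM at passage 2 and 46.3 CPM at passage 1. The 8 astrocyte markers summed to 237 to 432 CPM in K27M wells and 180 to 331 CPM in control wells on day 1, where the Serpinh1 ranges were apart, and only Gjb6 was at 0 in both. On day 2 they summed to 232 to 535 CPM in K27M wells and 81.9 to 177 CPM in control wells, with no overlap, and Gjb6 was at 0 in control wells only. The 8 endothelial markers summed to 6.6 to 18.6 CPM in K27M wells and 2.39 to 12.3 CPM in control wells on day 1, and to 6.2 to 13.9 and 2.31 to 5.26 CPM on day 2. Most of that sum was Kdr, a receptor for VEGF, at a mean of 10.4 CPM in K27M and 2.48 CPM in control wells on day 2, where Cldn5 was at 0 in both. On day 5 the 8 astrocyte markers summed to 1190 to 2740 CPM in K27M wells and 204 to 2190 CPM in control wells. The part of the astrocyte and endothelial markers in the Serpinh1 levels was not tested.

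Col5a2, a fibrillar chain that pairs with Col5a1 and sets the diameter of fibrils, was higher in K27M brainstem cultures on all 4 days. Its wells were at 0.307, 1.60 and 5.02 CPM in K27M and at 0, 0.0616 and 0.841 CPM in control on day 0. On day 5 they were at 2.66, 9.05 and 15.2 CPM in K27M and at 0.170, 0.299 and 1.77 CPM in control, with no overlap. The log2 fold changes were 3.02 ± 0.70 (adjusted p = 0.0167), 2.81 ± 0.73 (0.0209), 3.06 ± 0.76 (0.0161) and 3.15 ± 0.69 (0.00283) on days 0, 1, 2 and 5. The Col5a2 differences with passage as a covariate were 1.49 (0.181) and 1.53 (0.0876) on days 0 and 1, where the call was lost, and 2.04 and 2.42 on days 2 and 5, where it held. On day 5 the control level was uneven across cultures, at 1.45, 0.261 and 0.236 CPM in cultures 38, 41 and 42. Without culture 38 the day 5 difference was 5.42 and all 4 calls held, and without culture 41 or 42 all 4 were lost, at differences of 2.48 to 2.82 and 2.51 to 3.07.

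**Figure D4:**
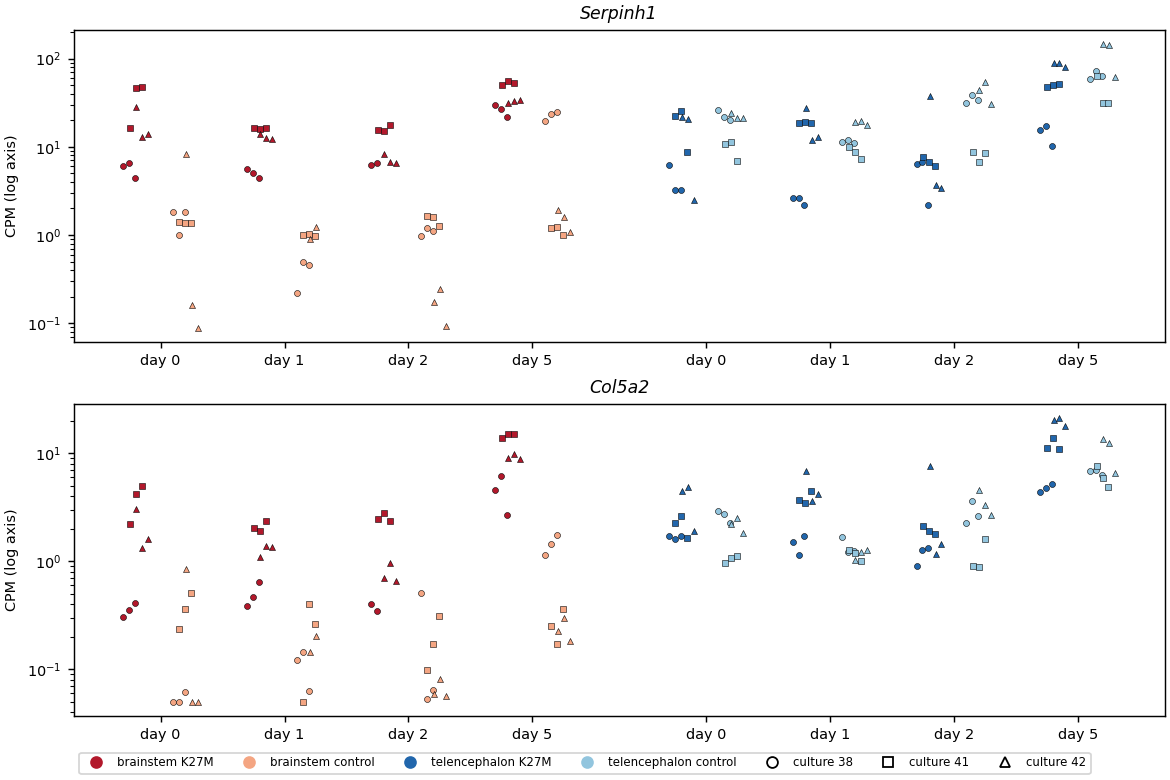
CPM (log axis) of Serpinh1 and Col5a2 in every brainstem and telencephalon well on days 0, 1, 2 and 5, K27M left of control. Wells below 0.05 CPM are drawn at 0.05. In brainstem on day 1 Serpinh1 was at 4.47 to 16.5 CPM in K27M wells and 0.218 to 1.22 CPM in control wells.

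Col12a1, a large chain that coats fibrils under tension, was also higher on all 4 days, by 2.17 ± 0.53 (adjusted p = 0.0270), 2.57 ± 0.56 (0.00601), 2.48 ± 0.56 (0.00696) and 2.54 ± 0.55 (0.00229). On day 5 it had 7.00, 11 and 12.4 CPM in K27M wells, against 0.574, 1.02 and 4.11 CPM in control wells. On day 1 it had 1.93, 3.21 and 3.76 CPM in K27M wells, against 0.254, 0.583 and 0.848 CPM in control wells. Neither day showed an overlap, and on days 1, 2 and 5 the call held with passage as a covariate (1.59, 1.61 and 1.73), while day 0 gave 1.16 (adjusted p = 0.221). All 4 calls held without culture 38 (2.43 to 3.75) and were lost without culture 41 (2.18 to 2.65) or 42 (1.75 to 2.70).

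Col23a1, a membrane-spanning chain that is shed and binds integrin, was higher on the 3 differentiation days. Its wells were at 0.263, 0.940 and 1.46 CPM in K27M and 0.0209, 0.133 and 0.255 CPM in control on day 1. On day 5 they were at 15.8, 26.4 and 34.2 CPM in K27M and 0.861, 1.34 and 8.60 CPM in control. The groups were apart on all 3 days, with log2 fold changes of 2.81 ± 0.64 (adjusted p = 0.00881), 3.69 ± 0.61 (0.000345) and 2.92 ± 0.58 (0.00118). Fitted with passage they were 2.08, 2.92 and 2.39, and all 3 calls held. The day 2 call also held without any 1 culture (3.22, 4.41 and 3.83 without culture 38, 41 and 42). The day 1 call was lost without culture 41 (2.66), and the day 5 call without culture 41 (2.46) or 42 (2.19).

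Col2a1, the main fibrillar chain of cartilage, was higher by 1.93 ± 0.37 (adjusted p = 0.00175) on day 1, 1.39 ± 0.36 (0.0206) on day 2 and 2.09 ± 0.37 (0.000345) on day 5. It stayed low throughout, with 1.32, 3.97 and 5.20 CPM in K27M wells on day 5, against 0.529, 0.736 and 1.1 CPM in control wells. The day 5 call held with passage as a covariate (1.76) and without any 1 culture (1.81 to 2.47), the day 1 call held with passage (1.62) and was lost without culture 41 (1.21), and the day 2 call was lost with passage (1.20) and without culture 38, 41 or 42 (1.54, 1.56 and 1.07). Col26a1, of the reproductive tract and outside the main collagen classes, was higher on days 0, 2 and 5, by 2.03 ± 0.48, 1.92 ± 0.52 and 2.41 ± 0.50 (adjusted p = 0.0207, 0.0259 and 0.00162), at group means of 1.07 to 2.41 CPM in K27M and 0.303 to 0.570 CPM in control cultures. With passage as a covariate it was not called on day 0 (1.42), and on days 2 and 5 it was (1.67 and 1.68). On day 5 it was not called without culture 41 (2.55) or 42 (2.15), on day 2 without culture 41 (1.95) or 42 (1.08), and on day 0 without culture 41 (1.94) or 42 (1.83). Col8a1, a short chain of hexagonal networks in vessel walls and cornea, was higher on days 0, 2 and 5, by 3.67 ± 0.77, 3.09 ± 0.78 and 3.78 ± 0.59, and by 4.04, 3.43 and 4.23 with passage as a covariate, all 3 called. The day 5 call held without any 1 culture (3.38 to 4.26), the day 0 call was lost without culture 41 (2.55), and the day 2 call without culture 38 (2.35) or 41 (2.70). Its levels were low, with 0.269, 1.39 and 1.72 CPM in K27M wells and 0, 0.101 and 0.312 CPM in control wells on day 5, and on day 0 the median control well was at 0.

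A further 5 genes were higher on day 5, and they were singled out after their values were seen. Col5a1, the partner of Col5a2, had 5.67, 10.0 and 15.1 CPM in K27M wells, against 2.16, 2.71 and 3.61 CPM in control wells, and was higher by 1.75 ± 0.23 (adjusted p = 9.57e-06). Col11a1 was higher by 1.02 ± 0.30 (0.0246), at 114 CPM in K27M and 54.0 CPM in control cultures. Col4a1 had 6.46, 20.0 and 22.4 CPM in K27M wells, against 2.97, 4.04 and 4.89 CPM in control wells, and was higher by 1.92 ± 0.36 (0.000602). Col4a2 had 2.51, 5.37 and 6.37 CPM in K27M wells, against 0.815, 1.17 and 1.65 CPM in control wells, and was higher by 1.95 ± 0.37 (0.000634). In none of these 4 genes did the wells overlap, which was not counted over all genes. The call held with passage as a covariate for Col5a1 (1.45), Col4a1 (1.79) and Col4a2 (1.87) and was lost for Col11a1 (1.02, adjusted p = 0.0657). Without culture 41 the differences were 1.5 for Col5a1, which was still called, and 1.79 for Col4a1, 1.97 for Col4a2 and 0.66 for Col11a1, which were not, and without culture 42 Col11a1 (1.15) was not called. Col22a1, a fibril-associated chain of tissue junctions, had 1.06, 1.80 and 2.59 CPM in K27M wells and 0.120, 0.355 and 1.28 CPM in control wells, which overlapped, and was higher by 1.52 ± 0.48 (0.0337). Its call was lost with passage (1.05) and without culture 41 (0.91) or 42 (1.15).

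Markers of other cell types were also apart between the genotypes in brainstem on day 5, where these type IV and V chains, Col5a2 and Col12a1 were higher. The 8 pericyte markers summed to 6.11 to 15.4 CPM in K27M wells and 1.2 to 4.27 CPM in control wells, the 10 fibroblast markers to 6.38 to 12.4 and 1.32 to 5.17 CPM, and the 8 endothelial markers to 7.19 to 11.5 and 1.51 to 4.67 CPM. A few genes made up most of each sum: Acta2, Tagln and Notch3 among pericyte markers (3.32, 3.46 and 2.97 CPM in K27M wells), Islr, Foxc1 and Ogn among fibroblast markers (3.60, 3.12 and 2.62 CPM), and Kdr among endothelial markers (8.73 CPM). Of the fibroblast list, Dcn, Lum and Pdgfrb went the other way from the sum. They averaged 0.0493, 0.0256 and 0.0408 CPM in K27M wells and 0.0921, 0.102 and 0.0632 CPM in control wells. Cdh5, of the endothelial list, did so too, at 0.00174 and 0.0339 CPM. None of these 3 lists had a marker at 0 in every well of either genotype. The 8 astrocyte markers summed to 1210, 2550 and 1580 CPM in K27M cultures 38, 41 and 42. In control cultures they summed to 1930, 237 and 281 CPM, so that culture 38 went the other way. The part of any of these markers in the calls was not tested.

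Only 2 genes were lower in K27M brainstem cultures. Col27a1 had 15.3, 17.6 and 19.9 CPM in K27M wells on day 5, against 36.3, 42.5 and 89.6 CPM in control wells, and was lower on day 1 (-1.45 ± 0.38, adjusted p = 0.0232) and on day 5 (-1.66 ± 0.38, 0.00350). The wells did not overlap on either day, and with passage as a covariate the day 5 difference was -1.63 and held. Col17a1 was lower on day 5 (-2.03 ± 0.55, adjusted p = 0.0139), with 0.388, 0.549 and 0.908 CPM in K27M wells, against 1.73, 2.12 and 4.43 CPM in control wells, and this call was lost with passage as a covariate (-1.99, 0.0591) and without culture 41 (-1.5). Without culture 41 neither Col27a1 call held (-0.96 on day 1 and -1.37 on day 5), and the day 1 call was also lost with passage (-1.42, 0.0620).

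In telencephalon cultures the basement membrane pair Col4a1 and Col4a2 carried the difference. On day 0, 2 genes were higher in K27M and none lower (0.288% and 0.212% of all genes), and on day 1, 4 were higher and none lower (2.23% and 4.02%). On day 2, 2 were higher and 1 lower (3.66% and 2.63%), and on day 5 none was called in either direction (1.7% and 1.02%). Of the 40 genes on day 5, 9 had an unadjusted p under 0.05 in the summed fit, 10 were called on wells alone and 2 by DESeq2. The shares of all genes by these measures are not given, so the counts show no excess over all genes. Without culture 38, 41 or 42 the counts were 0, 0 and 0 on day 0, 8, 1 and 1 on day 1, 2, 0 and 1 on day 2, and 1, 0 and 0 on day 5. The fit with passage called 2, 4, 3 and 4, and every telencephalon call named next held in it. The median log2 fold change of the 40 genes was 0.439, 0.349, -0.064 and 0.255.

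Col4a1 had 28.3, 39.1 and 63.3 CPM in telencephalon K27M wells on day 0, against 12.2, 14.0 and 18.9 CPM in control wells. On day 1 it had 33.0, 45.5 and 60.9 CPM in K27M wells, against 9.09, 11.6 and 21 CPM in control wells, and on day 2 it had 30.9, 41.5 and 53.6 CPM against 9.67, 13.1 and 25.9 CPM. The genotypes were apart on these 3 days. On day 5 they were not, with 9.49, 24.2 and 44.8 CPM in K27M wells and 13.2, 27.1 and 53.3 CPM in control wells. The log2 fold changes were 1.58 ± 0.35 (adjusted p = 0.0288), 1.70 ± 0.35 (0.00547) and 1.53 ± 0.35 (0.00879) on days 0, 1 and 2, and -0.21 on day 5. All 3 cultures were higher on each of the first 3 days, by 2.08, 1.11 and 1.41 (cultures 38, 41 and 42) on day 0. With 1 culture left out the day 0 call was lost each time (1.24 to 1.80), the day 1 call without culture 41 (2.21) or 42 (1.66), and the day 2 call without culture 41 (1.19) or 42 (1.85).

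Col4a2 followed Col4a1 in this comparison. It had 12.8, 14.6 and 22.9 CPM in K27M wells on day 0, against 3.57, 4.27 and 5.82 CPM in control wells. The log2 fold changes were 1.93 ± 0.36 (adjusted p = 0.00632), 2.13 ± 0.36 (0.00101) and 1.94 ± 0.36 (0.00186) on days 0, 1 and 2, with no overlap of wells on any of the 3. The day 1 call held without any 1 culture (1.76 to 2.62), the day 2 call was lost without culture 41 (1.61), and the day 0 call was lost each time (1.63 to 2.13). Endothelial markers moved with the pair, summing to 6.83 to 15.3 CPM in K27M wells and 1.54 to 5.02 CPM in control wells on day 1, with no overlap, and to medians of 9.57 and 3.37 CPM on day 2, while on day 0 the medians were 10 and 8.55 CPM. On day 1 Kdr made up most of the sum (11.2 CPM in K27M and 2.29 CPM in control wells), and Cldn5 and Cdh5 averaged at most 0.0567 CPM. Their part in the Col4a1 and Col4a2 differences was not tested. The genes stand head to head on chromosome 8 (GENCODE M21, GRCm38), Col4a1 on the minus strand from 11312826 and Col4a2 on the plus strand from 11312805, so that their annotated starts overlap by 22 bases. The library kit was stranded. The other type IV genes lie in pairs of the same kind, with 71 bases between the starts of Col4a4 and Col4a3 on chromosome 1 and 1308 bases between those of Col4a6 and Col4a5 on chromosome X.

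**Figure D5:**
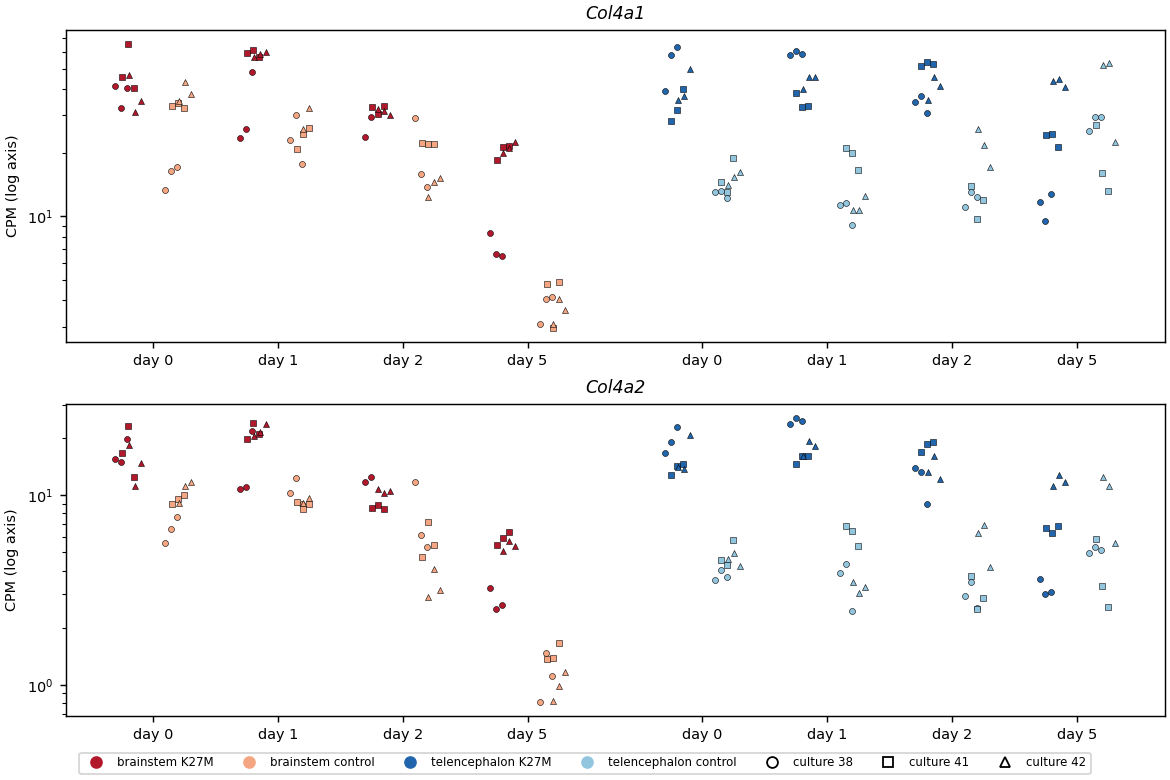
CPM (log axis) of Col4a1 and Col4a2 in every well by region and day, K27M left of control. In telencephalon the genotypes were apart on days 0, 1 and 2 (Col4a1 on day 0 at 28.3 to 63.3 CPM in K27M and 12.2 to 18.9 CPM in control wells) and overlapped on day 5, while in brainstem they were apart on day 5.

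The other calls in telencephalon were few. Col18a1 was higher in K27M on day 1 (1.59 ± 0.39, adjusted p = 0.0143), with 26.5, 62.7 and 69.6 CPM in K27M wells, against 7.27, 23.2 and 35.1 CPM in control wells, which overlapped. Col25a1, a membrane-spanning chain of neurons, was higher on day 1 (1.86 ± 0.46, adjusted p = 0.0159) at a mean of 0.354 CPM in K27M and 0.0897 CPM in control cultures. Col4a5 was lower on day 2 (-1.79 ± 0.52, adjusted p = 0.0371), at 7.17 CPM in K27M and 23.4 CPM in control cultures. Leaving out 1 culture ended the Col4a5 call each time (-2.04 to -1.31), and those of Col18a1 and Col25a1 without culture 41 (1.56 and 1.77) or 42 (1.17 and 1.88).

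The K27M effect was then compared between regions, as the effect in brainstem minus the effect in telencephalon. No gene was called on day 0 (0.00506% of all genes called). By other measures 8 genes had an unadjusted p under 0.05 in edgeR's summed fit, 9 were called on wells alone and DESeq2 called 0. The shares of all genes by these measures are not given, so the counts show no excess over all genes. On day 1, 3 were called (12.5% of all genes), on day 2, 4 (1.27%), and on day 5, 6 (5.27%), each with a higher value in brainstem. For Serpinh1 the effect differed by 3.92 ± 1.23 (adjusted p = 0.0340) on day 1 and 5.25 ± 1.25 (0.0269) on day 2. For Col12a1 it differed by 2.30 ± 0.75 (0.0418) and 3.55 ± 0.76 (0.0133) on the same days, for Col23a1 by 3.46 ± 0.85 (0.0348) on day 2 and for Col4a5 by 3.22 ± 0.74 (0.0228) on day 2. On day 5 it differed for Col8a2, a partner of Col8a1 (3.16 ± 0.86, 0.0307), Col4a1 (2.13 ± 0.49, 0.0145), Col2a1 (1.82 ± 0.52, 0.0379), Col4a2 (1.74 ± 0.50, 0.0393), Col5a1 (1.74 ± 0.32, 0.00378) and Col11a1 (1.5 ± 0.43, 0.0379). The remaining call of day 1 was Col9a3 (0.97 ± 0.31, 0.0375). Without culture 38, 41 or 42 the counts were 3, 0 and 2 on day 1, 2, 0 and 0 on day 2, and 12, 0 and 0 on day 5. With passage as a covariate 2, 1 and 5 were called on days 1, 2 and 5, and Serpinh1 was among them on day 1 (2.78, adjusted p = 0.00913) and day 2 (3.21, 0.0139).

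The brainstem was also compared with the telencephalon within each genotype, in batches that differed between regions. In control cultures 2 genes were higher and 7 lower in brainstem on day 0 (6.37% and 6.86% of all genes), 4 and 11 on day 1 (15.1% and 19.0%), 3 and 13 on day 2 (5.86% and 6.87%), and 3 and 14 on day 5 (7.45% and 10.9%). In K27M cultures 2 were higher and none lower on day 0 (2.69% and 1.99%), 3 and 5 on day 1 (3.73% and 2.94%), 3 and none on day 2 (2.18% and 1.96%), and 2 and 7 on day 5 (5.32% and 4.45%). With passage as a covariate the control counts were 1, 6, 1 and 4, and the K27M counts 4, 8, 4 and 11. Without culture 38, 41 or 42 the control counts were 4, 6 and 6 on day 0, 9, 11 and 12 on day 1, 11, 14 and 7 on day 2, and 19, 13 and 8 on day 5. The K27M counts were 1, 2 and 1 on day 0, 7, 4 and 5 on day 1, 3, 3 and 2 on day 2, and 7, 3 and 4 on day 5.

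Serpinh1 was lower in brainstem than in telencephalon control cultures on all 4 days, with log2 differences of -3.26 ± 0.89 (adjusted p = 0.0144), -4.01 ± 0.94 (0.00170), -5.05 ± 0.98 (0.000873) and -2.92 ± 0.90 (0.0223). On day 1 it had 0.218, 0.945 and 1.22 CPM in brainstem control wells, against 7.28, 11.3 and 19.4 CPM in telencephalon control wells. In K27M cultures the differences of 0.61, -0.09, 0.21 and -0.30 were not called. The control differences moved with passage: with it as a covariate they were 0.25 (adjusted p = 0.870), -0.34, -1.11 and -0.52, and none was called. All 4 calls held without culture 38 (-2.81, -3.66, -4.89 and -5.58), the day 5 call was lost without culture 41 (-2.81), and those of days 0, 2 and 5 were lost without culture 42 (-3.49, -4.18 and -1.89). Astrocyte markers summed to 81.9 to 177 CPM in brainstem and 314 to 2600 CPM in telencephalon control wells on day 2, and to 204 to 2190 and 2400 to 15300 CPM on day 5, and pericyte markers to 1.42 to 2.48 and 3.82 to 10.8 CPM on day 1, none overlapping, and their part was not tested. Col5a2 was lower in brainstem control cultures, with differences of -3.26, -3.02, -4.31 and -2.96, and its only call lost without 1 culture was that of day 5 without culture 42 (-2.15). With passage as a covariate its differences were -0.74, -0.46, -1.54 and -1.3, and no call held. Col3a1, a fibrillar chain of loose connective tissue, was also lower on all 4 days, with differences of -4.60, -5.62, -9.61 and -4.55, and only its day 2 call held without any 1 culture (-8.14 to -12.45). Col3a1 was at or near 0 in brainstem control wells, with group medians of at most 0.0240 CPM, so its fitted changes have no firm size. In telencephalon it was concentrated in single wells and cultures, and in telencephalon K27M cultures on day 5 the wells ran from 0.0244 to 19.6 CPM, where the 10 fibroblast markers summed to 4.44, 13.1 and 30.6 CPM in cultures 38, 41 and 42. Their part in the Col3a1 level was not tested.

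Col2a1 was higher in brainstem in both genotypes. In K27M cultures it was higher on all 4 days, by 2.33 ± 0.40 (adjusted p = 0.000262), 2.93 ± 0.38 (4.56e-06), 2.60 ± 0.38 (2.93e-05) and 2.23 ± 0.38 (0.000156). In control cultures it was higher by 1.91, 1.68 and 1.49 on days 0, 1 and 2, and these 3 calls held with passage as a covariate (2.46, 2.28 and 2.12). The 4 calls in K27M cultures held without any 1 culture (2.05 to 3.46), while in control cultures the day 0 call was lost without culture 38 (1.90) and the day 2 call without culture 38 (1.47) or 41 (1.17). On day 0 it had 0.362, 0.788 and 1.38 CPM in brainstem K27M wells, against 0, 0.152 and 0.190 CPM in telencephalon K27M wells. Col15a1, the second basement membrane zone proteoglycan beside Col18a1, was higher in brainstem K27M cultures by 2.90, 2.65 and 3.95 on the first 3 days, at means of 0.448 to 1.05 CPM in brainstem and 0.0588 to 0.177 CPM in telencephalon. Without culture 42 none of these 3 Col15a1 calls held (2.94, 2.16 and 3.08), and without culture 38 the day 0 call was lost (3.14). Col6a1 and Col6a2 were higher in brainstem control cultures on day 5, by 1.90 ± 0.47 (adjusted p = 0.00568) and 1.82 ± 0.34 (0.000437), but the wells overlapped, and Col6a1 was at 72.0, 229 and 34.7 CPM in brainstem control cultures 38, 41 and 42. Without culture 41 neither was called, at 1.07 for Col6a1 and 0.90 for Col6a2.

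The enzymes and partners of collagen were counted from lists by role. These lists were also chosen with earlier results known, so their shares beside all genes are a description and not a test. On day 5 in brainstem, of 17 modification genes tested 3 were higher and none lower in K27M, of 13 trimming genes 6 and 3, of 11 matrix partners 5 and none, of 8 breakdown genes 2 and none, of 9 receptors 1 and 1, and of 7 export genes none and 1, where 8.09% of all genes were higher and 4.96% lower. Among the partners Tnc (tenascin C) averaged 82.3 CPM in K27M and 4.63 CPM in control cultures (4.26, adjusted p = 0.000370), Thbs1 (thrombospondin) 9.73 and 0.368 CPM (4.10), and Fn1 (fibronectin) 9.14 and 1.06 CPM (3.01, 7.41e-06). Plod2, the lysyl hydroxylase of collagen ends, averaged 44.8 CPM in K27M and 17.2 CPM in control cultures (1.30), and Timp3, an inhibitor of matrix proteases, 170 and 58.9 CPM (1.44). The collagen receptor Ddr1 was lower, at 462 CPM in K27M and 745 CPM in control cultures (-0.75). The part of the astrocyte, pericyte, fibroblast and endothelial markers given above in these day 5 calls was not tested. On day 0 the matrix partner Sparc, a secreted collagen-binding protein, was at 62.0 CPM in K27M and 17.8 CPM in control brainstem cultures (1.75, adjusted p = 0.00367). All of these 7 calls held with passage as a covariate. Without culture 41 those of Plod2 (1.07), Timp3 (1.12), Ddr1 (-0.63) and Sparc (1.44) were lost, and without culture 42 those of Thbs1 (3.40), Timp3 (1.30) and Sparc (1.92). In telencephalon none of these lists had a call on day 0, where 0.288% of all genes were higher and 0.212% lower. On day 5 the calls there were 2 higher and 1 lower of 13 trimming genes and 1 lower of 7 export genes. Of all genes, 1.7% were higher and 1.02% lower in telencephalon on day 5.

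Partner genes were also compared between days 5 and 0. Modification genes higher and lower on day 5 numbered 8 and 3 in brainstem K27M, 11 and 6 in brainstem control, 10 and 4 in telencephalon K27M and 11 and 3 in telencephalon control cultures, of 17 tested, where 32.9% to 36.0% of all genes rose and 27.6% to 30.4% fell. Adamts2, which trims the amino end of fibrillar procollagens, rose by 3.88 in brainstem K27M, 5.64 in brainstem control, 5.04 in telencephalon K27M and 5.13 in telencephalon control cultures. Plod1, a lysyl hydroxylase, rose by 1.61, 2.36, 2.31 and 2.36, and Sparc by 2.56, 3.84, 2.83 and 3.08 in the same order. Crtap, a subunit of the prolyl 3-hydroxylase complex of the endoplasmic reticulum, fell by 1.75, 2.29, 2.17 and 1.73.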

How the data were processed

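RNA of 142 wells was sequenced with a stranded total RNA kit. The authors quantified read pairs per transcript with Salmon 1.10.1 against mm10, per the submitters' processing notes, and deposited expected counts (NumReads, estimates that need not be whole), TPM and effective lengths per well. GENCODE M21 gave the gene of 139821 of the 141084 transcripts (54127 genes), and the rest held 0.252% to 0.377% of reads. A gene's count is the rounded sum over its transcripts.

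The test was edgeR 4.0.16 (R 4.3.3; TMM, filterByExpr over the 16 groups, 19769 genes, glmQLFit and glmQLFTest). It had culture within region as a block after the study's own model, in 1 fit of all wells and 1 fit of wells summed by culture and day. A call needed an adjusted p under 0.05 in both. Deviations of same-numbered cultures correlated at -0.13 to 0.598 over 24 pairs. CPM was computed on TMM-scaled library sizes. The fits were first tested on simulated data with known changes. Pairs of wells in a culture (140) all differed by more than sampling noise.

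The members and gene lists were chosen with earlier results of these data known. Values by well are given for members with a group mean of at least 5 CPM, and named in each comparison were the called members with a log2 change of at least 1 and 1 sign in all 3 cultures, up to 5 in each direction. Further members were named by class after their values were seen. Alternatives were DESeq2 1.42.0, its size factors in edgeR, no low-count filter, no culture block, a well-number block, passage as a covariate, and leaving out each culture or the deepest library. Salmon shares ambiguous reads between similar transcripts, and intervals were not computed for single wells.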

Additional observations from a re-analysis of the deposited data

Results flagged for a closer look

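In 15 of 244 groups of wells with a value, 1 well stood far from the other wells. Chance would do so in about 1 in 20 for independent, normally spread wells, but the wells of a culture share its cells. Brainstem control culture 38, well 1 on day 2 gave 5 of the 15, all high. This library had the fewest genes with a count of all 142 (20157), and its counts differed from those of the other wells of that culture by a chi-square of 293 and 284 per gene, against 16.5 between those wells. The values were Col16a1 at 922 CPM (others 284 to 553), Col18a1 at 60.0, Col4a2 at 11.7, Col5a3 at 22.9 and Col9a3 at 86.3 CPM. Telencephalon K27M culture 42, well 1 on day 2, the only well of that group at passage 1, gave 3 high values, with Serpinh1 at 37.6, Col4a5 at 29.2 and Col5a1 at 9.82 CPM. Its astrocyte markers summed to 1420 CPM, against 96.0 and 79.0 CPM in the other wells of that culture and day, and their part in these values was not tested. Telencephalon K27M culture 38, well 3 on day 5, the only well of that group at passage 4, was high in Col6a1 (92.9 CPM) and Col6a2 (38.0 CPM) and low in Col20a1 (117 CPM). The others were Col18a1 at 26.5 CPM (low) in telencephalon K27M culture 42 on day 1, Col19a1 at 13.2 CPM in telencephalon K27M culture 42 on day 0, Col4a1 at 65.1 CPM in brainstem K27M culture 41 on day 0, and Col4a1 at 23.8 CPM (low) in brainstem K27M culture 38 on day 2.

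The K27M effect differed between brainstem and telencephalon by edgeR's interaction test for 13 values, each higher in brainstem. These were 3 of 40 genes on day 1, 4 on day 2 and 6 on day 5, where 12.5%, 1.27% and 5.27% of all genes were called, and without culture 41 none was called on any of these days. On the log2 scale these were 3.92 for Serpinh1, 2.30 for Col12a1 and 0.97 for Col9a3 on day 1. On day 2 they were 5.25 for Serpinh1, 3.55 for Col12a1, 3.46 for Col23a1 and 3.22 for Col4a5. On day 5 they were 3.16 for Col8a2, 2.13 for Col4a1, 1.82 for Col2a1, 1.74 for Col4a2, 1.74 for Col5a1 and 1.5 for Col11a1.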

How the results depend on the processing

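Counts of called members are given below in the day order 0, 1, 2 and 5, for those that moved by more than 1.5 times. Counts over all genes under these settings are not given, so a move cannot be read as particular to these genes. On wells alone they were 22, 21, 18 and 25 for K27M against control in brainstem, 7, 12, 15 and 10 in telencephalon, 9, 17, 15 and 22 for the difference of these effects, 23, 25 and 27 for brainstem against telencephalon in control on days 0, 2 and 5, and 10, 14, 10 and 23 in K27M. Without the replicate block of culture they were 1 and 5 for brainstem K27M on days 0 and 1, 1 for telencephalon K27M on day 0, 0, 0 and 2 for the difference of effects on days 1, 2 and 5, 4 and 9 for the regions in control on days 0 and 1, and 5 and 4 in K27M on days 1 and 5. A block of culture and well number moved no count, but it changed only the fit on wells, and a call also needs the unchanged summed fit. With passage as a covariate they were 1 and 5 for brainstem K27M on days 0 and 1, 4 for telencephalon K27M on day 5, 1 for the difference of effects on day 2, 1, 6, 1 and 4 for the regions in control, and 4 in K27M on day 0, and 2 fold changes turned round, Col4a6 to 0.23 in control on day 1 and Serpinh1 to 0.25 in control on day 0. DESeq2 gave 8 for brainstem K27M on day 0, 2 for telencephalon K27M on day 5, 10 for the difference of effects on day 5, 15 for the regions in control on day 0, and 5 and 5 in K27M on days 0 and 2. With its fold threshold of 1.1 it gave 1 for the difference of effects on day 1 and 1 for telencephalon K27M on day 5. With every gene tested the difference of effects on day 1 had 0. Without the deepest library, chosen after seeing the data, the difference of effects had 10 and telencephalon K27M 2 on day 5.

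Leaving out 1 culture gave 0 to 6, 0 to 11, 1 to 7 and 3 to 18 for brainstem K27M, 0 to 0, 1 to 8, 0 to 2 and 0 to 1 for telencephalon K27M, 0 to 3, 0 to 2 and 0 to 12 for the difference of effects on days 1, 2 and 5, 4 to 6, 9 to 12, 7 to 14 and 8 to 19 for the regions in control, and 1 to 2, 4 to 7, 2 to 3 and 3 to 7 in K27M. The cause of these moves was not tested, beyond the smaller number of cultures. Counts for day 5 against day 0 stayed within 1.5 times under all 13 alternatives. Of 133 named fold changes, 48 were called under every alternative, 38 lost the call with passage, 30 without the block, and 23, 61 and 58 without culture 38, 41 or 42. With 3 cultures, a difference of several standard errors could still fall short of a call, as that of Serpinh1 in brainstem on day 0 did. Genes under 1 CPM rest on few reads.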
